A study of Mus musculus with 13 samples.

Results

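The levels of 10 genes of the Slit, Robo, netrin and semaphorin guidance families were followed in fibroblasts of the mouse mammary gland. The genes were the ligands Slit2 and Slit3, the receptors Robo1 and Robo2, the ligand netrin-1 (Ntn1), the secreted semaphorins Sema3a, Sema3b, Sema3d and Sema3e, and the co-receptor neuropilin-1 (Nrp1), chosen by symbol among the 32285 genes listed in each library. Their unique molecular identifiers (UMIs, each standing for 1 captured RNA molecule) were summed over fibroblast barcodes, which numbered 100523 of the 120355 cell barcodes of 13 droplet libraries. A fibroblast barcode had 500 to 7500 detected genes, at most 10% mitochondrial UMIs, at least 50 UMIs of Dcn, Lum and Col1a2 per 10000, and no UMI of Epcam, Pecam1, Rgs5, Sox10, Ptprc or Myog, which mark epithelium, endothelium, pericytes, Schwann cells, leukocytes and muscle. Levels are given as CPM, the UMIs of a gene per 1000000 UMIs of the fibroblast barcodes of a library.

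The study profiled how mammary fibroblasts change over development, after hormone treatment and during tumour formation. The 5 stage libraries held stromal cells of wild-type C57BL/6 females at puberty (4 weeks), in adult virgin mice (9 weeks), at day 14.5 of pregnancy, day 10 of lactation and day 4 of involution, with 1 library per stage from a pool of 2 mice. Cells positive for CD31, CD45 or TER-119 (the lineage markers) or for CD24 had been sorted away. The hormone libraries used the same sort of wild-type C57BL/6 females at 9 weeks given placebo or medroxyprogesterone acetate with estrogen (MPA+E), with 2 libraries per arm from 2 mice each. The raGFP-Wnt1 libraries held GFP+ cells of Pdgfra-GFP KI/+ MMTV-Wnt1 T/+ females on a mixed C57BL/6 FVB background. In these mice the MMTV promoter drives Wnt1 mainly in mammary epithelium, and GFP marks cells that use the Pdgfra locus. Hyperplastic gland and tumour came from the same mouse, at 45 weeks for mouse 1 and 17 weeks for mouse 2.

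Slit proteins are secreted and bind Robo receptors, through which they repel migrating axons and cells, and in the mammary gland Slit and Robo proteins are known for restraining ductal branching and for holding the epithelial layers together. Netrin-1 is a secreted, laminin-related protein bound by Dcc, neogenin and Unc5 receptors, and it is known in the gland for cell adhesion in terminal end buds. Class 3 semaphorins are secreted cues that mostly signal through neuropilins paired with plexins, whereas Sema3e can bind plexin D1 without a neuropilin.

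Total UMIs per library ranged from 56551189 in puberty to 112550204 in tumour 1, and fibroblast barcodes from 4236 in tumour 2 to 11951 in the adult. The median fibroblast had 3990 UMIs in pregnancy and 20256 in tumour 2, so shares of cells with a UMI are also given after thinning each cell to 2000 UMIs. All 5 fibroblast markers (Dcn, Lum, Pdgfra, Col1a2, Col1a1) were detected in every library. Pairs of libraries shared 5 to 51 cell barcodes, at most 0.54% of the smaller library. Between 3.92% and 11.6% of fibroblast barcodes per library were doublet candidates by score and were kept in the main values. Intervals cover counting error only.

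The members lie on 5 chromosomes of the mm10 (GRCm38) build. Slit2 (ENSMUSG00000031558) spans chr5:47983138-48307733, and Sema3a, Sema3d and Sema3e are also on chromosome 5. Slit3 and Ntn1 are on chromosome 11, Robo1 and Robo2 on chromosome 16, Sema3b on chromosome 9 and Nrp1 on chromosome 8. In GENCODE M21, exons of Nrp1 overlap those of Mir1903 on the same strand, and the other 9 members share no exon with a gene on either strand. RefSeq (GRCm38.p6) promoter windows, the 250 bases before an annotated start, were matched for 8 of the 10 members. Those of Sema3d, Sema3e and Robo1 are shown because their levels in one class of fibroblasts fell after MPA+E. Capitals mark GAACA or its reverse complement TGTTC, a half-site of the progesterone response element, which 36.2% of 32851 RefSeq promoter windows contain. The half-site GGTCA (or TGACC) of the estrogen response element, found in 35.2% of windows, was absent from all 3. The window of Robo1 lies inside the GENCODE gene, so it belongs to an internal start.
Sema3d, chr5:12382916-12383165, plus strand: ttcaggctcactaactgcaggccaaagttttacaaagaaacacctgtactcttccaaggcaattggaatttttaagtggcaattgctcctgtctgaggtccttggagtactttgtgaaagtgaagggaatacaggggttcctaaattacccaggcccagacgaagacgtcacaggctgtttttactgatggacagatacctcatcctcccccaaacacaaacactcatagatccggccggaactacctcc
Sema3e, chr5:14025026-14025275, plus strand: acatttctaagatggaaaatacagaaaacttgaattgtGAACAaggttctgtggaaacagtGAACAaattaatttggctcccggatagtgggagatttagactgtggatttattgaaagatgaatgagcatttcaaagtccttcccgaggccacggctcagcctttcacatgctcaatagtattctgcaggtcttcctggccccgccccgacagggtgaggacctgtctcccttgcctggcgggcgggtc
Robo1, chr16:72662899-72663148, plus strand: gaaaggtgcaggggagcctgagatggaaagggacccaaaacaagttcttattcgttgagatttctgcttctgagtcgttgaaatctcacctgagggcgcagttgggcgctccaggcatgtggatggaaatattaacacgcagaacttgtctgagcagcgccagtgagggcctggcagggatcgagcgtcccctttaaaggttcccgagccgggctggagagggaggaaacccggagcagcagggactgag

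The 2 matches of Sema3e begin 212 and 189 bases before the start. Of the other windows, that of Nrp1 held 1 GGTCA match, 2 of the 3 windows of Robo2 held 1 GAACA match each, and those of Slit2, Slit3 and Sema3a held none. A match describes letters only and is not evidence of binding.

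Members were first compared among fibroblast classes. Cells of the stage, hormone and Wnt1 libraries were clustered separately, with the members, 57 other guidance genes and all marker genes kept out of the clustering. Clusters were named from markers as preadipocyte-like (Fabp4, Cd36), extracellular matrix (ECM) remodelling-like (Crabp1, Pla2g7), lobular-like (Thbs4, Bmp5), adipogenesis-regulatory-like (Gdf10, Clec11a), cycling-like (Mki67) and, in Wnt1 libraries, myofibroblastic-like (Acta2, Lrrc15, Tnc). A further class raised 3 to 6 of 6 markers of mesenchymal progenitors (Pi16, Dpp4, Cd55, Anxa3, Cd34, Ly6a), but Krtdap, a keratinocyte marker, was among the 10 leading genes of its largest cluster in each set and none of those 6 markers was. It is therefore called the Pi16/Dpp4 class. The ECM remodelling class raised 6 of 6 of its markers in the stage set, 5 in the hormone set and 3 in the Wnt1 set. The myofibroblastic class joined a cluster that raised 5 of 6 markers, none among its 10 leading genes, and a cluster that raised 3 of 6. The first of these also raised 3 of 4 pericyte markers, by 1.27 on average on the log2 scale against 1.47 for the myofibroblastic markers. The study saw fibroblasts with the protein of Acta2 only in tumours, so hyperplasia cells of this class need not be myofibroblasts. The names were rebuilt, so a class may differ from the cluster of the same name in the study, and levels by class are descriptions without a test.

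Among the 5 classes other than cycling in the stage and hormone sets, Slit2, Robo1, Robo2 and Sema3a were highest in the ECM remodelling class. Slit2 led there in 9 of 9 libraries, with a median of 251 CPM. In the Pi16/Dpp4 class Slit2 was 3.39 to 22.4 CPM over the 5 stages. Robo1 led in the ECM remodelling class in 9 of 9 libraries with a median of 35.7 CPM, and Robo2 in 9 of 9 with 28.1 CPM. Robo2 stayed at or under 1.74 CPM in the Pi16/Dpp4 class at every stage. So a Slit ligand and both Robo receptors had their highest level in the same class. Sema3a led there in 8 of 9 libraries, with a median of 17.4 CPM.

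Among the same 5 classes Sema3b, Sema3d and Sema3e were highest in the Pi16/Dpp4 class. Sema3b led there in 9 of 9 libraries with a median of 57.5 CPM, Sema3e in 9 of 9 with 18.5 CPM, and Sema3d in 7 of 9 with 58.5 CPM. In both MPA+E libraries Sema3d was highest in the adipogenesis-regulatory class instead. In the ECM remodelling class Sema3d was 0.352 to 6.13 CPM over the 9 libraries. Unnamed stage clusters could be higher: Sema3e in the adult was 29.2 CPM in cluster 5 against 14.6 CPM in the Pi16/Dpp4 class, and Sema3b in puberty 98.3 CPM in cluster 6 against 82.4 CPM.

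Slit3 varied less among the classes. It was highest in the adipogenesis-regulatory class in 7 of 9 libraries, with a median of 187 CPM there. In the adult Slit3 ranged among the 5 classes from 87.2 CPM in the Pi16/Dpp4 class to 132 CPM in the preadipocyte class. The range was wider in puberty, from 40.5 CPM in the ECM remodelling class to 117 CPM in the adipogenesis-regulatory class. Ntn1 led in the lobular class in 6 of 9 libraries, with a median of 60.3 CPM, and at 4.91 to 23.9 CPM was lowest in the ECM remodelling class in every library but involution, where the preadipocyte class had 22.0 CPM. Nrp1 led in the ECM remodelling class in 6 of 9 libraries with a median of 204 CPM. The leading classes of Ntn1 and Nrp1 were not stable: at a cluster resolution of 0.5 in place of 0.3 they became the Pi16/Dpp4 class and the adipogenesis-regulatory class, while the other 8 members kept theirs, Robo1 with a lead in 6 of 9 libraries in place of 9.

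**Figure D1:**
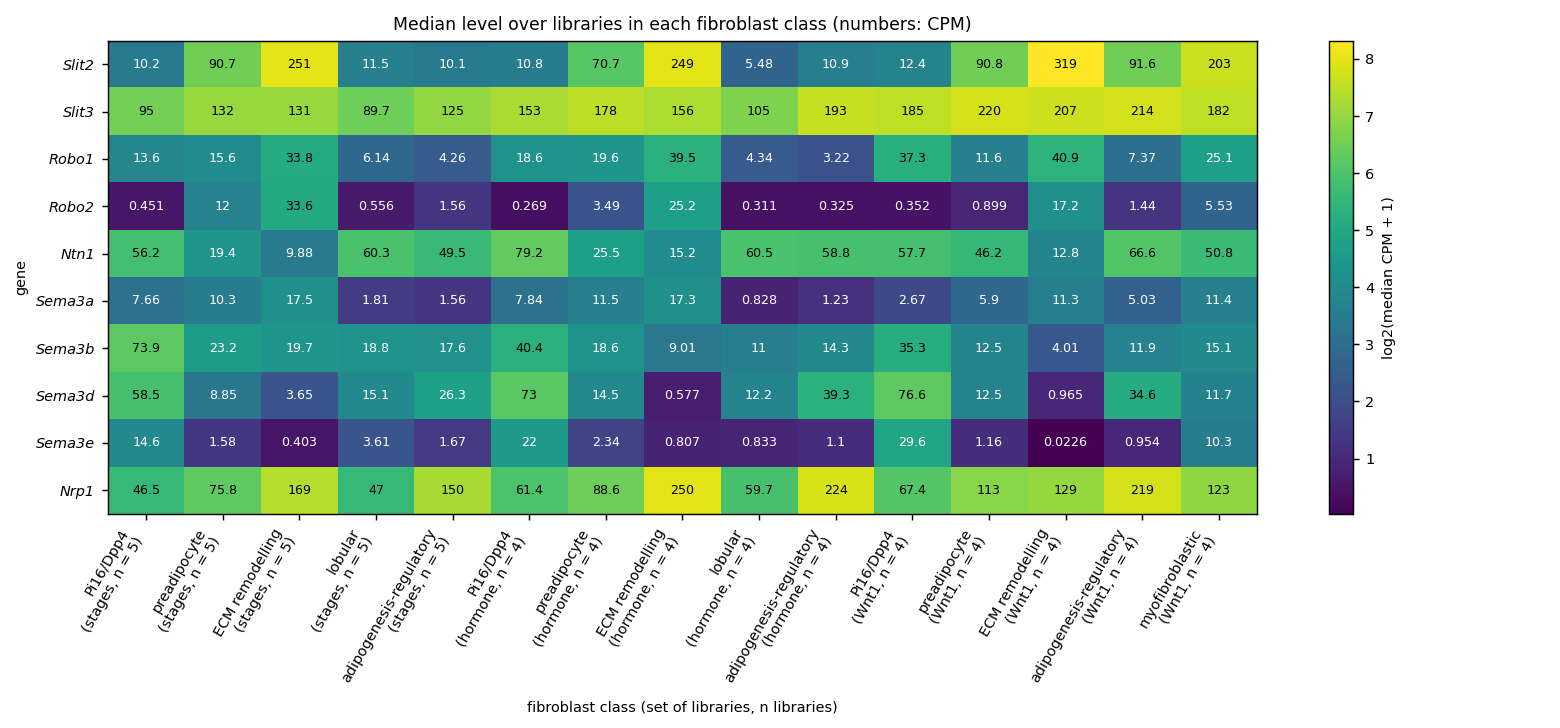
Median CPM of each member (rows) in each fibroblast class of the stage (5 libraries), hormone (4) and Wnt1 (4) sets (columns), with the colour on a log2(CPM + 1) scale and the median printed in each cell. Slit2, Robo1, Robo2 and Sema3a peak in the ECM remodelling class of the stage and hormone sets, and Sema3b, Sema3d and Sema3e in the Pi16/Dpp4 class.

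Barcodes with at least 2 UMIs of a marker of another cell type gave a measure of free RNA and of other sources. They were pooled over the 13 libraries and had under 50 UMIs of Dcn, Lum and Col1a2 per 10000. That limit leaves out barcodes with much fibroblast RNA, so free RNA may be understated. In 93 muscle barcodes (median 5984 UMIs) no member exceeded 5.20 CPM, and 1.08% of these cells had a UMI of Slit2 against 31.0% of fibroblasts (median 7886 UMIs). After thinning, 14.1% of fibroblasts had a UMI of Slit2 and 26.7% one of Slit3. Muscle barcodes had 0 UMIs of Slit3, Robo2, Sema3a, Sema3d and Sema3e, for which the upper 95% Poisson limit is 6.4 CPM. Robo1 in muscle barcodes, at 5.20 CPM (95% interval 1.07 to 15.2), cannot be separated from the lower fibroblast levels of that gene. Other cell types carried some members at high levels. Nrp1, a co-receptor for vascular endothelial growth factor as well, was 608 CPM in 445 endothelial barcodes against 106 CPM in fibroblasts. Sema3b reached 409 CPM in 60 Schwann barcodes against 26.5 CPM in fibroblasts. Slit3 was 79.0 CPM in 1116 pericyte barcodes, and Slit2 4.27 CPM. In 611 epithelial barcodes Robo2 was 14.1 CPM against 7.47 CPM in fibroblasts, Slit2 46.1 CPM and Robo1 15.4 CPM.

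Over the 13 libraries the members ranged widely. Slit2 was lowest in puberty (13.4 CPM) and highest in the tumours (174 and 275 CPM). Ntn1 was lowest in tumour 2 (3.33 CPM) and highest in the placebo libraries (62.4 and 66.2 CPM). Slit3, at 75.0 to 242 CPM, and Nrp1, at 54.5 to 147 CPM, had narrower ranges.

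**Figure D2:**
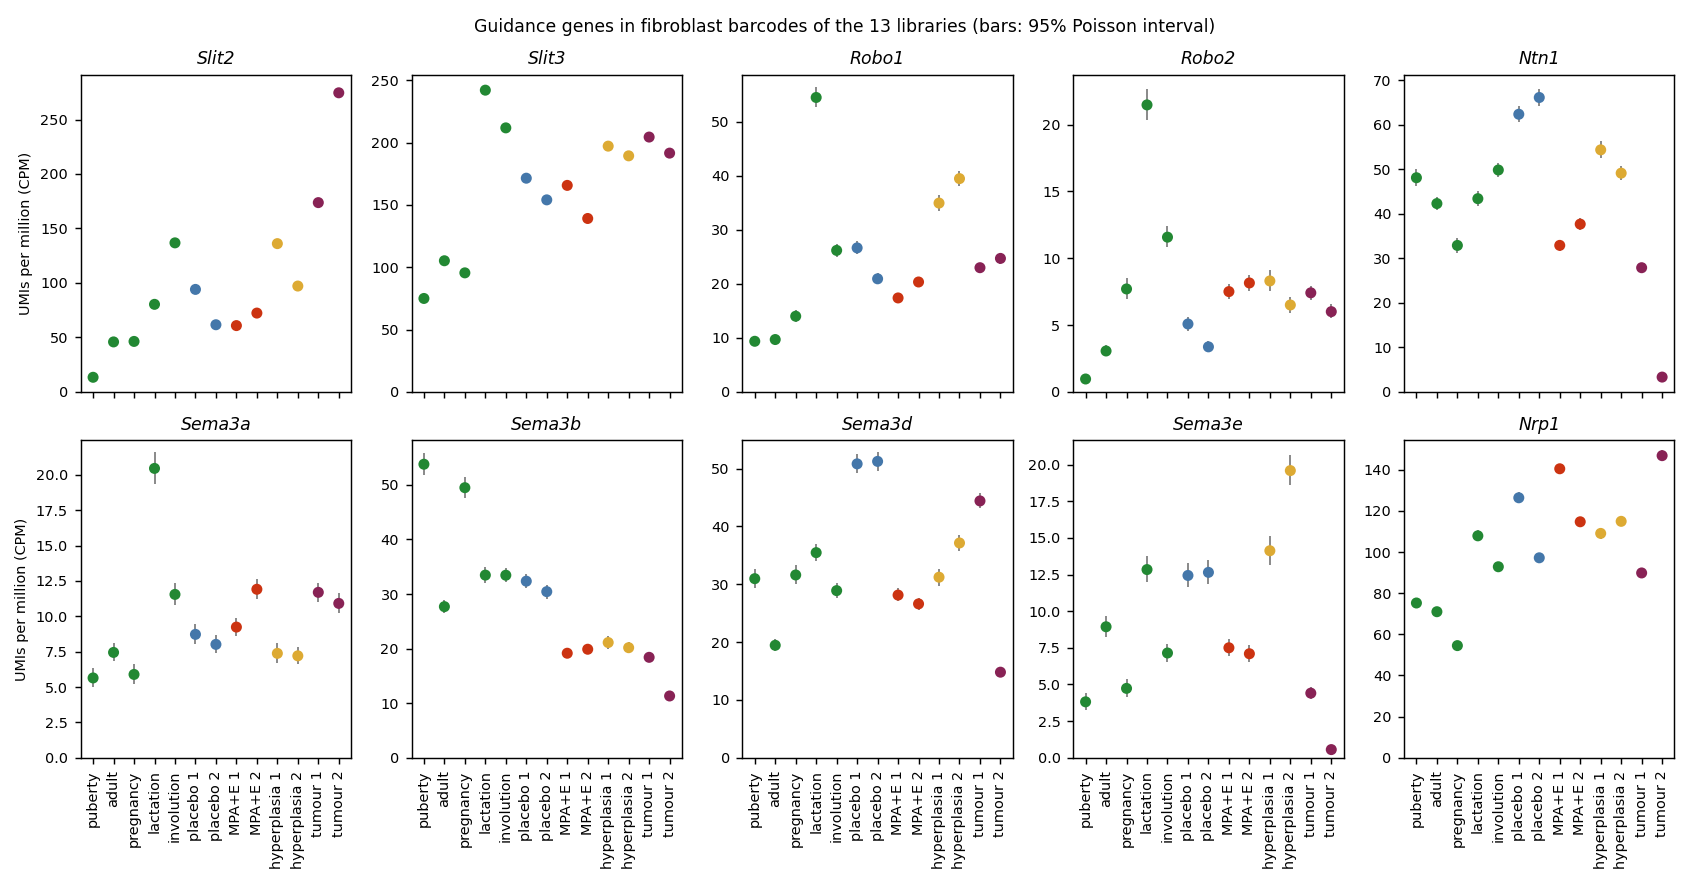
CPM of each member (panels) in the fibroblast barcodes of each of the 13 libraries, with 95% Poisson intervals for counting error as bars (green, stages; blue, placebo; red, MPA+E; yellow, hyperplasia; purple, tumour). The 4 members that fell after MPA+E (Ntn1, Sema3b, Sema3d, Sema3e) have both red points under both blue points, as does Robo1, which did not pass.

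The stage comparison asks how levels change as the gland develops. With 1 library per stage there was no test, and a change of stage cannot be told apart from a difference between libraries. In a pool of cells, fewer cells of a class and less RNA per cell cannot be told apart either, so values within classes follow. A ratio of at least 2 in either direction was counted, among genes of at least 5 CPM in either library.

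Of the members Slit2 had the largest ratio between puberty and the adult over all fibroblasts. Slit2 was 13.4 CPM in puberty and 45.9 CPM in the adult, 3.42 times lower (95% interval of the ratio 0.268 to 0.318). Sema3e, at 3.82 and 8.94 CPM, was 2.34 times lower. These were the 2 members past 2-fold of 9 with enough UMIs (Robo2 was under 5 CPM in both), while 1.86% of 9615 genes passed in either direction. Sema3b went the other way, from 27.7 CPM in the adult to 53.8 CPM in puberty, a ratio of 1.94, and was higher in puberty in 5 of 5 classes. The low Slit2 of puberty was not seen in the ECM remodelling class, where its level was 251 CPM against 267 CPM in the adult. That class made up 1.5% of fibroblasts in puberty and 10.1% in the adult. In the preadipocyte class Slit2 was 24.5 CPM in puberty and 90.7 CPM in the adult. Within classes Slit2 was at least 2-fold lower in puberty in 2 of 5. Sema3e was so in 4 of 5 and higher in 1, with few UMIs outside the Pi16/Dpp4 class.

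In pregnancy 1 member, Robo2, passed 2-fold, at 7.70 CPM against 3.06 CPM in the adult, a ratio of 2.52 (95% interval 2.13 to 2.98), while 1.29% of 9658 genes passed. Within the ECM remodelling class Robo2 was 48.5 CPM against 22.4 CPM, and its ratio was above 1 in 5 of 5 classes. Sema3b (ratio 1.79) and Sema3d (1.63) were also above 1 in 5 of 5 classes. Sema3e had a ratio of 0.530.

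More members differed between pregnancy and lactation than at the other steps. Slit3 was 95.5 CPM in pregnancy and 242 CPM in lactation, a ratio of 2.53 (95% interval 2.45 to 2.62). Robo1 was 14.0 and 54.5 CPM, a ratio of 3.89 (3.58 to 4.23). Sema3a was 5.89 and 20.5 CPM, a ratio of 3.47 (3.05 to 3.97). In all 3 the lactation library was the highest of the 5 stages. Robo2 (ratio 2.79) and Sema3e (2.71) also passed 2-fold, so that 5 of 10 members were higher and none lower, while 8.53% of 9962 genes passed in either direction. The median ratio was 2.26 over the members and 1.05 over all genes. Nrp1, with a ratio of 1.98, fell just short, and Sema3b alone was under 1, at 0.676.

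For several of these members the higher level in lactation was present inside the classes. Slit3 was at least 2-fold higher in 5 of 5 classes, with ratios of 2.29 to 3.07. Robo1 was at least 2-fold higher in 4 of 5 classes, with 53.3 CPM against 13.6 CPM in the Pi16/Dpp4 class and 60.5 CPM against 38.9 CPM in the ECM remodelling class, the lowest ratio (1.56). Sema3a passed in 4 of 5 classes, with 25 UMIs against 10 in the lobular and 13 against 5 in the adipogenesis-regulatory class. Robo2 passed in 3 of 5, with 12 UMIs against 7 in the Pi16/Dpp4 and 20 against 4 in the lobular class. In the ECM remodelling class, where it led, Robo2 was 67.2 CPM against 48.5 CPM, a ratio of 1.39. Sema3e was 8.56 CPM in pregnancy and 40.6 CPM in lactation in the Pi16/Dpp4 class, where it led. Slit2, with a ratio of 1.73 over all fibroblasts, had a ratio above 1 in 4 of 5 classes and was at least 2-fold higher in 2. In the ECM remodelling class, where it led, Slit2 was 207 CPM in pregnancy and 183 CPM in lactation. Milk RNAs were also high in the lactation fibroblasts, at 230 CPM for Wap and 180 CPM for Csn2. Without the clusters led by milk RNAs or made mostly of doublets, a choice made after seeing the data, 5 members again passed 2-fold.

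**Figure D3:**
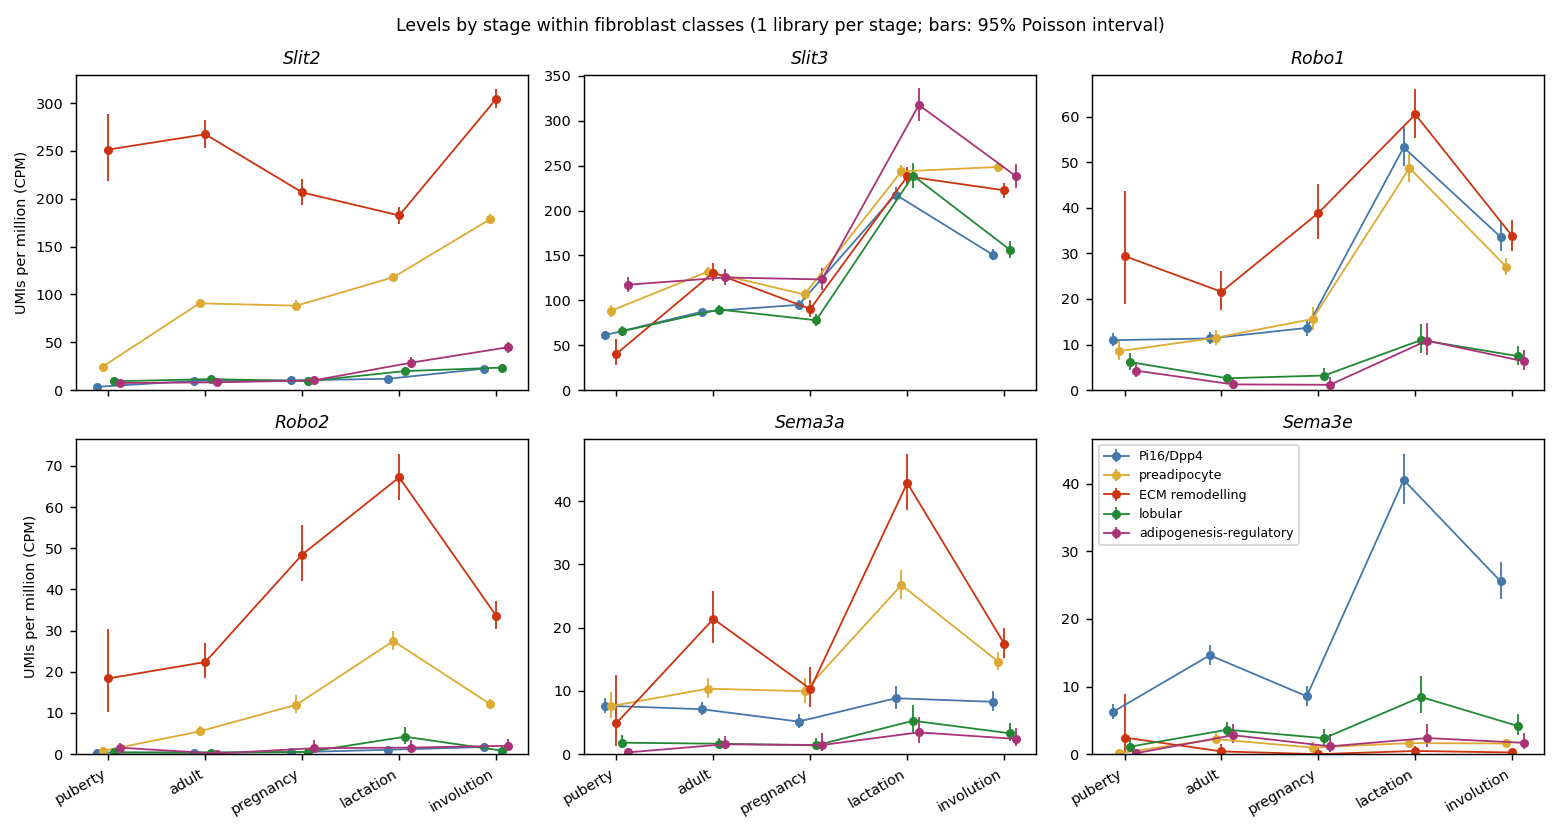
CPM by stage (horizontal axis) for 6 members (panels) within 5 fibroblast classes (colours), with 95% Poisson intervals as bars and 1 library per stage. Slit3 is at least 2-fold higher in lactation than in pregnancy in 5 of 5 classes. Slit2 is higher in 4 of 5 classes, at least 2-fold in 2 of them, and in the ECM remodelling class is 207 CPM in pregnancy and 183 CPM in lactation.

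At involution Robo1 was 26.2 CPM against 54.5 CPM in lactation, 2.08 times lower, the 1 member past 2-fold, while 3.14% of 9805 genes passed. With TMM scaling, which moved the median ratio of all genes from 0.917 to 0.987, no member passed. Robo1 was lower in involution in 5 of 5 classes, with ratios of 0.554 to 0.678. Slit2 went the other way, with 80.4 CPM in lactation and 137 CPM in involution (ratio 1.70), and its ratio was above 1 in 5 of 5 classes.

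Among the 57 other guidance genes most differences were again between pregnancy and lactation. At that step the share of all genes past 2-fold was also largest, 8.53% against 1.29% to 3.14% at the others. There 8 of 31 with enough UMIs were at least 2-fold higher and 1 lower, among them Rgmb (a repulsive guidance molecule, ratio 3.43), Plxnc1 (2.54) and Ntn4 (netrin-4, 2.48), with Gpc1 lower (0.396). In puberty 1 of 27 was lower, Nrp2 (0.392), and in pregnancy 0 of 27 passed. In involution 1 of 32 was higher, Gpc1 (2.80).

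The hormone comparison asks how fibroblasts respond to MPA+E, with 2 libraries per arm. Of the 10 members, 4 fell, namely Ntn1 and the semaphorins Sema3b, Sema3d and Sema3e, and none rose (edgeR quasi-likelihood test, adjusted p under 0.05 over 15642 genes, of which 4.33% passed). Each library was a pool of 2 mice, and the p-values measure the spread between these pools.

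Sema3d was 50.8 and 51.2 CPM in the placebo libraries and 28.1 and 26.6 CPM in the MPA+E libraries, a log2 fold change of -0.89 ± 0.09 (SE, edgeR adjusted p = 0.0139). Sema3e was 12.4 and 12.6 CPM against 7.50 and 7.10 CPM, -0.77 ± 0.11 (edgeR adjusted p = 0.0287). The arms did not overlap for either, and the share of all genes whose arms did not overlap is not given here. Sema3b was 32.4 and 30.4 CPM against 19.2 and 19.9 CPM, -0.67 ± 0.10 (edgeR adjusted p = 0.0316). Ntn1 was 62.4 and 66.2 CPM against 32.9 and 37.7 CPM, -0.85 ± 0.14 (edgeR adjusted p = 0.0438). Again both treated libraries were below both placebo libraries. Without either placebo library none of the 4 passed, and without either MPA+E library all 4 did. Ntn1 did not pass with no filter on low counts or with non-fibroblast barcodes kept.

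The Slit ligands and Robo receptors did not pass. Slit2 was 94.1 and 61.6 CPM in placebo and 60.8 and 72.3 CPM in MPA+E, and Robo1 26.6 and 20.9 CPM against 17.4 and 20.3 CPM. The arms of Slit2 overlapped and those of Robo1 did not. Robo2 was 5.08 and 3.37 CPM against 7.50 and 8.15 CPM, 0.91 ± 0.20 (edgeR adjusted p = 0.0834). Its arms did not overlap, and it passed with DESeq2 and with the replicate number as a block, where 5 members passed in each fit, and 1358 and 2451 genes passed in place of 678. Slit3, Sema3a and Nrp1 had log2 fold changes of -0.09, 0.36 and 0.20. The arms of Sema3a did not overlap, at 8.72 and 8.02 CPM in placebo and 9.24 and 11.9 CPM in MPA+E. The summed level of 4 endothelial markers in fibroblast barcodes, of which Pecam1 is at 0 by the rule, was 14.5 to 14.6 CPM in placebo and 43.9 to 45.7 CPM in MPA+E, and its part in these results was not tested.

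**Figure D4:**
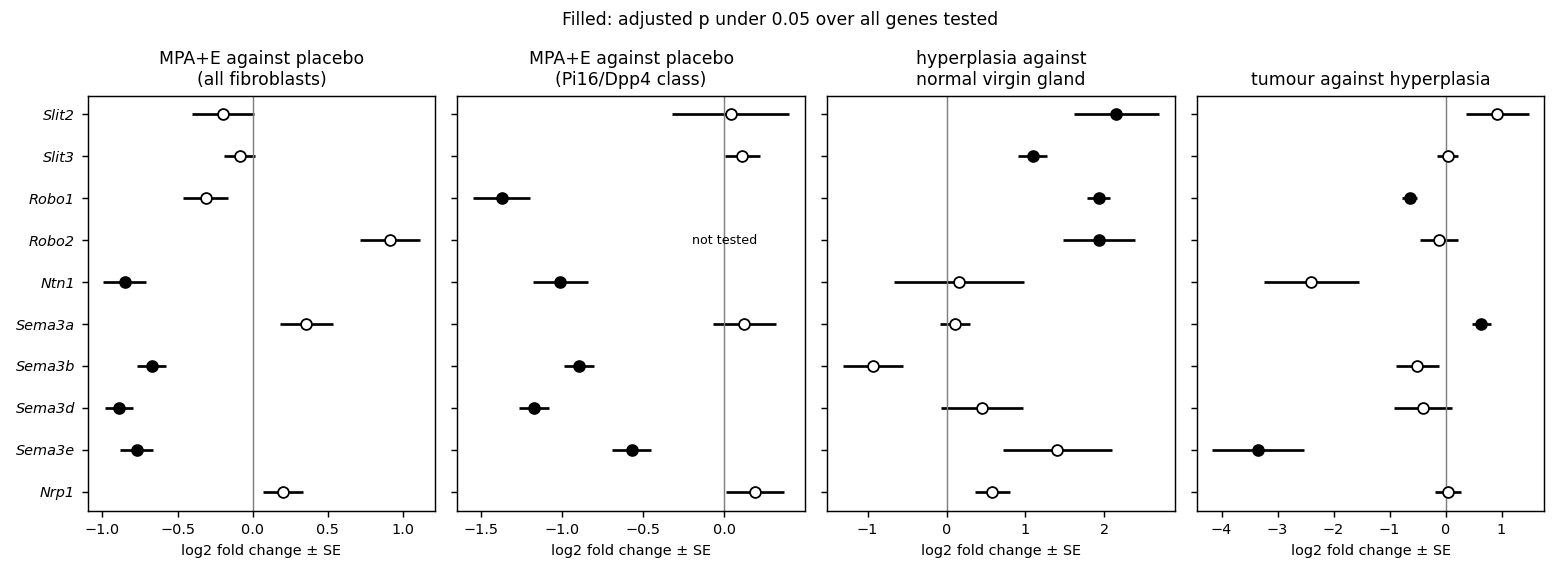
Log2 fold change with its SE (horizontal axis) of each member (rows) in 4 comparisons (panels), with filled points where the adjusted p was under 0.05. In all fibroblasts after MPA+E the filled points are Ntn1, Sema3b, Sema3d and Sema3e, all under 0.

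Within the classes most calls of members after MPA+E were in the Pi16/Dpp4 class. There 5 of the 9 members tested fell and none rose, while 13.2% of 13419 genes passed (Robo2 had too few UMIs). Robo1, which had not passed over all fibroblasts, was 32.9 and 25.2 CPM in placebo and 9.36 and 11.97 CPM in MPA+E, -1.37 ± 0.18 (edgeR adjusted p = 0.00792), 2.59 times lower. Sema3d was 110 and 99.6 CPM against 46.3 and 43.1 CPM, -1.17 ± 0.09 (edgeR adjusted p = 0.00228). Neither gene's arms overlapped in this class, and the share of all genes without overlap is not given here. Sema3b was 57.5 and 51.5 CPM against 29.4 and 26.8 CPM, -0.90 ± 0.09 (edgeR adjusted p = 0.00444). Ntn1 was 103 CPM in both placebo libraries against 41.8 and 55.9 CPM, -1.01 ± 0.17 (edgeR adjusted p = 0.0180). For Sema3e, at 25.9 and 25.5 CPM against 18.5 and 14.9 CPM, the change was -0.57 ± 0.12 (edgeR adjusted p = 0.0356). Robo1, Sema3b and Sema3d passed without any 1 library, whereas Ntn1 and Sema3e did not pass without either placebo library. The class held 31.3% and 33.6% of placebo fibroblasts and 30.1% and 37.5% of MPA+E fibroblasts. Its largest cluster alone, tested separately after seeing its leading genes, gave the same 5 calls, with -1.39 ± 0.18 for Robo1 and -1.18 ± 0.09 for Sema3d. At a cluster resolution of 0.5 the Pi16/Dpp4 class held 27.9% and 30.5% of placebo fibroblasts but 12.1% and 17.2% of MPA+E fibroblasts. An unnamed cluster with Ctla2a and Cxcl13 among its leading genes then held 8.30% and 8.99% against 20.05% and 21.5%. The part of such shifts of make-up in these results was not tested.

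The other classes differed from this pattern. In the preadipocyte class Sema3d was 10.9 and 8.85 CPM in placebo and 20.5 and 18.1 CPM in MPA+E, a rise of 0.94 ± 0.13 (edgeR adjusted p = 0.0235), the 1 member of 10 to pass while 4.17% of 12819 genes did. It did not pass without either placebo library. Sema3d thus rose in one class and fell in another after the same treatment. In the adipogenesis-regulatory class Slit2 was 19.4 and 13.9 CPM against 7.10 and 7.83 CPM, -1.09 ± 0.21 (edgeR adjusted p = 0.0473), 1 of 8 members tested to pass while 3.38% of 11692 genes did. That call was lost without any 1 of the 4 libraries, with doublet candidates removed and with no filter on low counts. Sema3d in this class was 33.8 and 34.4 CPM against 53.3 and 44.1 CPM (edgeR adjusted p = 0.0661).

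In the ECM remodelling class none of 9 members passed, while 1.23% of 12655 genes did, and in the lobular class none of 7 passed, while 2.69% of 10538 did. At an unadjusted p under 0.05 the numbers were 4 of 9 members and 1619 of 12655 genes in the first class, and 1 of 7 members and 1419 of 10538 genes in the second. Robo1 in the ECM remodelling class was 35.7 and 32.3 CPM in placebo and 45.9 and 43.3 CPM in MPA+E, 0.33 ± 0.13 (edgeR adjusted p = 0.360), opposite in sign to its change in the Pi16/Dpp4 class. Ntn1 there was 21.6 and 18.3 CPM against 12.03 and 11.4 CPM, -0.82 ± 0.15 (edgeR adjusted p = 0.0659). With the replicate number as a block 4 members passed in the preadipocyte class, and 3 each in the ECM remodelling and adipogenesis-regulatory classes, while 2242, 1316 and 1256 of all genes tested in these classes passed (535, 156 and 395 without the block).

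The difference between the Pi16/Dpp4 class and the average over the remaining 4 classes was tested directly, with the library as a term. The response to MPA+E of 5 of the 10 members differed, while 12.2% of 13934 genes did. The log2 difference in response was -1.39 ± 0.17 for Sema3d (SE, edgeR adjusted p = 4.3e-05) and -1.18 ± 0.17 for Robo1 (edgeR adjusted p = 0.00032). For Sema3d the average includes the ECM remodelling class, where at 0.352 to 0.708 CPM it had too few UMIs to be tested alone. Sema3b (-0.79 ± 0.16) and Ntn1 (-0.49 ± 0.12) also had the lower response in the Pi16/Dpp4 class, and Slit3 (0.30 ± 0.08) the higher one. Slit3 passed in none of the 4 fits without 1 library, and Ntn1 did not pass without placebo 1 or without MPA+E 1. For Sema3e no difference was called, at 0.16 ± 0.28 (edgeR adjusted p = 0.795). Its average includes the lobular and adipogenesis-regulatory classes, where it had too few UMIs to be tested alone, so the test cannot show like responses.

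**Figure D5:**
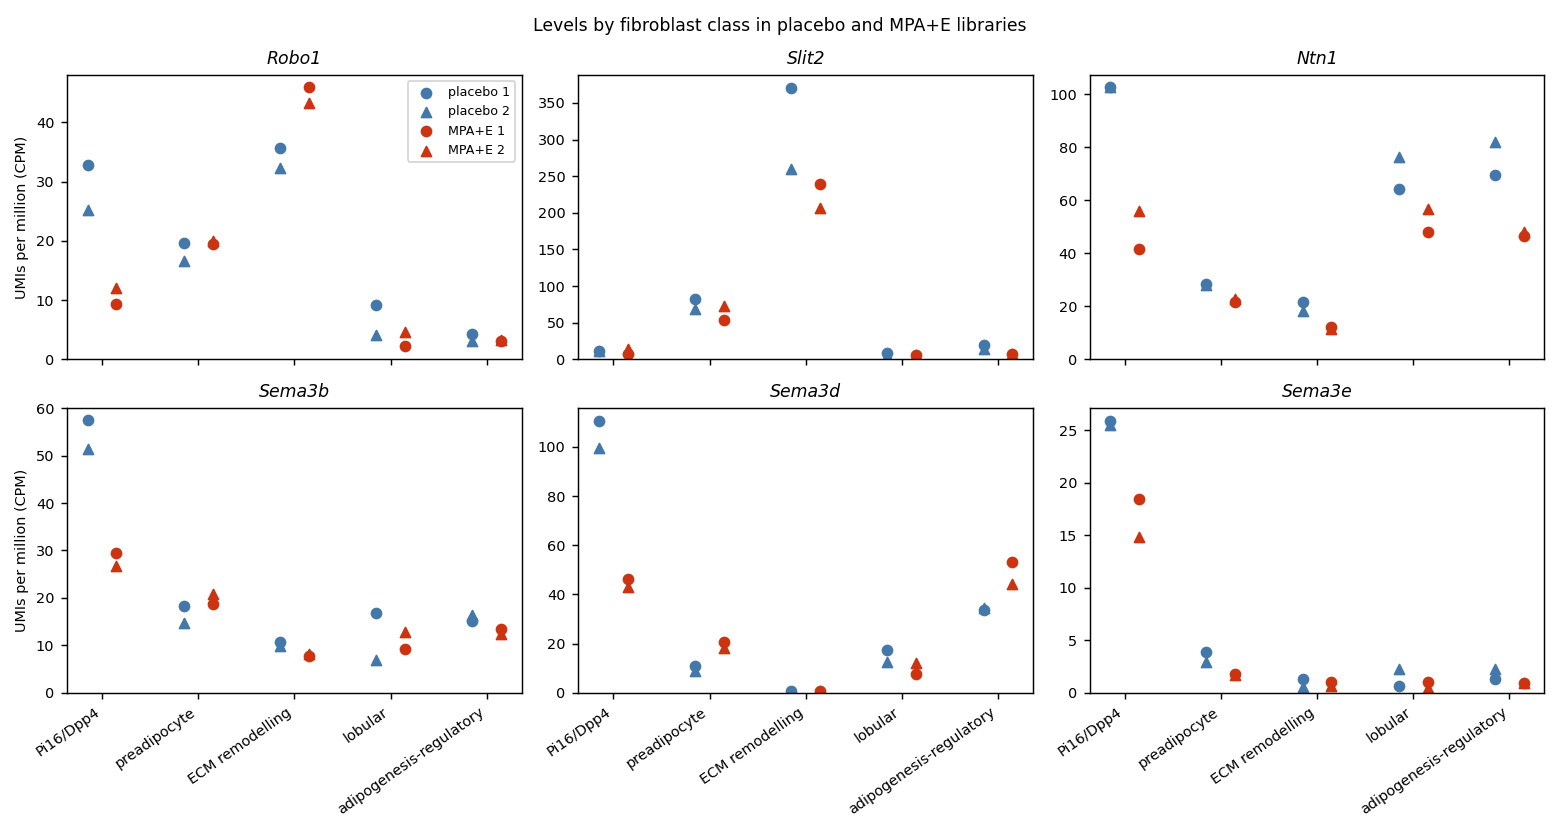
CPM of 6 members (panels) in 5 fibroblast classes (horizontal axis) for the placebo (blue) and MPA+E (red) libraries, with circles for replicate 1 and triangles for replicate 2. In the Pi16/Dpp4 class both MPA+E points lie under both placebo points for Robo1, Ntn1, Sema3b, Sema3d and Sema3e, and in the preadipocyte class both lie above for Sema3d.

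Over all fibroblasts after MPA+E 4.33% of 15642 genes passed. Of the other guidance genes, a list of 57 receptors, ligands and effectors, 45 were tested there, 5 fell and 1 rose. None passed without placebo 1 or without placebo 2. Sema3c, a further class 3 semaphorin, was 619 and 576 CPM in placebo and 180 and 204 CPM in MPA+E, -1.62 ± 0.14 (edgeR adjusted p = 0.00942). Neo1 (neogenin, a netrin receptor) fell by 0.82, Nrp2 (a neuropilin) by 0.85, Plxna1 (a plexin) by 0.80 and Sema6a by 0.73 on the log2 scale. Gpc1, a glypican that binds Slit proteins, rose by 1.02. In the Pi16/Dpp4 class 38 were tested, 11 fell and 5 rose. In the preadipocyte class 4 of 37 fell and 2 rose. None rose in the ECM remodelling (2 of 39 fell), lobular (3 of 32) and adipogenesis-regulatory (5 of 34) classes. Of all genes tested, 13.2% passed in the Pi16/Dpp4 class, 4.17% in the preadipocyte and 1.23% in the ECM remodelling class. In the lobular and adipogenesis-regulatory classes 2.69% and 3.38% did. Leaving out either placebo library lowered the number that fell to 5 or 6 in the Pi16/Dpp4 class, where 1 then rose, and to 0 in the preadipocyte class. Leaving out any 1 library lowered it to 0 or 1 in the adipogenesis-regulatory class, and without either MPA+E library 2 or 3 rose in the ECM remodelling class. The response in the Pi16/Dpp4 class was higher than in the other classes for 5 of 42 (2 to 4 without 1 library) and lower for 7. For this difference in response 12.2% of 13934 genes passed. Sema3c passed, with a lower level in MPA+E, in each of the 5 classes.

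The comparison of hyperplasia with the normal virgin gland asks how fibroblasts of a hyperplastic gland differ from normal ones. The hyperplastic glands came from mice that also had a tumour. Slit2, Slit3, Robo1 and Robo2 rose, 4 of 10 members, and none fell (limma-voom, adjusted p under 0.05 over 16302 genes, of which 14.0% passed). Normal libraries were puberty and adult of C57BL/6 mice sorted as stroma, and hyperplasia libraries older Wnt1 transgenic mice of mixed background sorted by GFP. Genotype, strain, age and sort cannot be told apart here. The placebo libraries, of C57BL/6 mice as old as the adult ones and sorted as stroma, were not in this fit. They had 172 and 154 CPM of Slit3 and 94.1 and 61.6 CPM of Slit2. Robo1 was 26.6 and 20.9 CPM there, and Robo2 5.08 and 3.37 CPM. For each gene both values lay between the adult and the hyperplasia libraries, and this difference from the adult library was not tested.

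Robo1 was 9.36 CPM in puberty and 9.68 CPM in the adult, and 34.9 and 39.4 CPM in hyperplasia, a log2 fold change of 1.93 ± 0.15 (SE, limma-voom adjusted p = 0.00553). Slit3 was 75.0 and 105 CPM against 197 and 189 CPM, 1.09 ± 0.18 (limma-voom adjusted p = 0.0232). For both, the hyperplasia libraries were above both normal ones. Slit2 was 13.4 and 45.9 CPM against 136 and 97.1 CPM, 2.15 ± 0.54 (limma-voom adjusted p = 0.0472). Robo2 was 0.965 and 3.06 CPM against 8.30 and 6.50 CPM, 1.93 ± 0.46 (limma-voom adjusted p = 0.0430). The groups did not overlap, although the normal libraries differed more than 3-fold from each other for both genes. Nor did those of Ntn1, Sema3b, Sema3d, Sema3e and Nrp1, which did not pass. The share of all genes without overlap is not given here. No member passed without puberty, hyperplasia 1 or hyperplasia 2, and only Slit2 and Robo1 passed without the adult library. With edgeR in place of limma-voom Slit3 and Robo1 passed. Slit2 did not pass with doublet candidates removed, with a mitochondrial limit of 5%, with non-fibroblast barcodes kept or with a fibroblast limit of 100 per 10000.

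The make-up of the fibroblasts moved with this comparison. The ECM remodelling class, in which Slit2, Robo1 and Robo2 led in the stage and hormone sets, made up 44.1% and 39.9% of hyperplasia fibroblasts against 1.5% in puberty and 10.1% in the adult, from separate clusterings. The class raised 3 of 6 of its markers in the Wnt1 set and 6 of 6 in the stage set, so these shares need not count the same cells. Within that class Slit2 was 300 and 233 CPM in hyperplasia, against 251 CPM in puberty and 267 CPM in the adult. Robo1 was 44.1 and 44.9 CPM, against 29.4 and 21.6 CPM. Robo2 in that class was 19.8 and 17.9 CPM in hyperplasia, against 18.4 and 22.4 CPM, so its higher level was not seen there. In the Pi16/Dpp4 class Robo1 was 49.8 and 57.7 CPM in hyperplasia, against 10.95 and 11.3 CPM. Slit3 was higher in hyperplasia than in either normal library in each of the 4 classes present in both sets, at 176 to 220 CPM against 40.5 to 132 CPM. These class values carry no test, and the part of the class shares in the result was not tested.

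Of the members that did not pass, Sema3b had 53.8 and 27.7 CPM in the normal libraries and 21.1 and 20.2 CPM in hyperplasia, and Sema3e 3.82 and 8.94 CPM against 14.1 and 19.6 CPM. Nrp1 was 75.2 and 71.0 CPM against 109 and 115 CPM, 0.58 ± 0.22 (limma-voom adjusted p = 0.120). Among the other guidance genes 49 were tested, 7 rose and 3 fell, but none passed without any 1 of the 4 libraries. Crmp1 (a semaphorin response mediator) rose by 2.48, Nrp2 by 2.32, Ntn4 (netrin-4) by 1.93, Sema4a by 1.69 and Unc5b (a netrin receptor) by 1.62 on the log2 scale, and Sema3g fell by 2.79 and Plxna4 by 2.14. Dscam, which passed too, had 5 UMIs in puberty, 0 in the adult and 32 and 42 in hyperplasia. In this comparison 14.0% of all 16302 genes passed.

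The comparison of tumours with the hyperplastic gland of the same mice asks how the fibroblasts of both tissues differ. Sema3e and Robo1 fell and Sema3a rose, 3 of 10 members (limma-voom, adjusted p under 0.05 over 16302 genes, of which 29.3% passed). Sema3e was 14.1 and 19.6 CPM in hyperplasia and 4.41 and 0.558 CPM in the tumours, -3.35 ± 0.81 (limma-voom adjusted p = 0.0282), 10.2 times lower. Robo1 was 34.9 and 39.4 CPM against 23.0 and 24.7 CPM, -0.64 ± 0.13 (limma-voom adjusted p = 0.0207). Sema3a was 7.38 and 7.21 CPM against 11.7 and 10.9 CPM, 0.64 ± 0.17 (limma-voom adjusted p = 0.0369). None of the 3 overlapped between groups of 2 libraries, and the share of all genes without overlap is not given here. The 3 calls were lost without either hyperplasia library. That of Sema3a was also lost without tumour 1, with non-fibroblast barcodes kept and with a fibroblast limit of 100 per 10000. That of Sema3e was lost with edgeR, and the fold change of Sema3e was -4.91 without tumour 1 and -1.89 without tumour 2.

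Ntn1 was 54.4 and 49.2 CPM in hyperplasia, 27.9 CPM in tumour 1 and 3.33 CPM in tumour 2, -2.40 ± 0.86 (limma-voom adjusted p = 0.0758). It passed without either tumour library, at -3.98 without tumour 1 and -0.86 without tumour 2. Tumour 2 differed from tumour 1 in every class, with 2.82 to 8.13 CPM of Ntn1 against 16.3 to 57.6 CPM. Sema3d was 31.2 and 37.1 CPM in hyperplasia, 44.4 CPM in tumour 1 and 14.8 CPM in tumour 2, so the tumours lay on both sides of the hyperplasia. Slit2 was 136 and 97.1 CPM against 174 and 275 CPM, 0.92 ± 0.56 (limma-voom adjusted p = 0.239). The groups did not overlap, but the difference did not pass the test. Slit3 and Nrp1 had log2 fold changes of 0.04 each.

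Classes again moved with the groups. The myofibroblastic class made up 4.30% and 3.97% of hyperplasia fibroblasts and 40.2% and 65.6% of tumour fibroblasts, and the Pi16/Dpp4 class, in which Sema3e is highest, 21.8% and 26.2% against 27.3% and 4.15%. Sema3e was lower in the tumours within classes too, at 46.7 and 52.4 CPM in hyperplasia and 12.5 and 10.4 CPM in the tumours in the Pi16/Dpp4 class. In the myofibroblastic class it was 21.3 and 18.8 CPM against 1.80 and 0.210 CPM. This class joined 2 clusters. Sema3e was almost all in cluster 4 (leading genes Areg, Cxcl5, Tnc), which raised 3 of 6 myofibroblastic markers. Sema3e there was 58.1 and 45.2 CPM against 4.07 and 0.293 CPM, with 74 and 110 cells in hyperplasia. Ntn1 in the same cluster was 207 and 165 CPM against 18.5 and 1.39 CPM. Slit2 in the ECM remodelling class was 300 and 233 CPM against 337 and 508 CPM, and in the myofibroblastic class 154 and 121 CPM against 252 and 279 CPM. Robo1 was 49.8 and 57.7 CPM in hyperplasia against 24.8 and 13.01 CPM in the tumours in the Pi16/Dpp4 class, and 44.1 and 44.9 CPM against 31.4 and 37.6 CPM in the ECM remodelling class. In the myofibroblastic class its groups overlapped, at 25.5 and 18.1 CPM against 24.8 and 26.02 CPM. The summed level of 4 pericyte markers in fibroblast barcodes, with Rgs5 at 0 by the rule, was 12.4 to 13.6 CPM in hyperplasia and 29.5 to 32.2 CPM in the tumours, and its part was not tested.

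Of the other guidance genes 49 were tested here, 8 rose and 3 fell, while 29.3% of 16302 genes passed in either direction. Without hyperplasia 1 the numbers were 4 and 1, without hyperplasia 2 they were 3 and 2, and without tumour 1 they were 9 and 11. Slit1, the remaining Slit ligand, had 0 UMIs in both hyperplasia libraries and 146 and 150 UMIs in the tumours (1.42 and 1.71 CPM). Gpc1 was 3.35 and 2.69 CPM in hyperplasia and 67.4 and 83.0 CPM in the tumours, 4.65 ± 0.22 (limma-voom adjusted p = 0.000955). The netrin receptors Unc5b and Unc5c rose by 2.15 and 4.63, and Sema7a by 3.61 on the log2 scale. Plxna4 (a plexin) rose by 3.53 and Mical2 (a plexin effector) by 3.12, and Sema4a fell by 2.60. The netrin receptor Dcc was at most 0.0842 CPM in any of the 13 libraries.

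Members were also compared with each other. Over 73 class sums of at least 100 cells from the 13 libraries, the correlation of log2(CPM + 1) was highest between Slit2 and Robo2 (Pearson r = 0.81), followed by Robo1 and Sema3a (0.74), and Sema3b and Sema3e reached 0.71. Among 7896 genes, those most like Slit2 were Cx3cl1 (r = 0.94), Crabp1 (0.94) and Shc4 (0.93). Robo2 was most like Col13a1 (0.92), Sema3d like Arhgef28 (0.91), Ntn1 like Ablim1 (0.89) and Robo1 like Epb41l3 (0.88). Sema3b was most like Akr1c18 (0.88), Sema3e like Adgrg2 (0.87) and Nrp1 like Prickle1 (0.85). Slit3 and Sema3a had the loosest matches, Dram1 (0.81) and Rassf8 (0.82). The points share libraries and depth, so these values describe likeness only.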

How the data were processed

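Single-cell RNA was measured in 13 droplet libraries. The authors deposited filtered matrices of UMI counts per gene and barcode, made with Cell Ranger 6.1.2 against mm10 per the labels' processing notes. The annotation release is not given in the sources used here, and gene positions come from GENCODE M21, which holds 99.6% of the deposited gene IDs. Whole-number counts were summed over fibroblast barcodes by library and class, and every sample's group came from the labels.

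Cells of each set were clustered with Seurat 5.3.0 (RPCA integration, 1000 variable genes, 30 components, resolution 0.3), with 139 member, guidance and marker genes left out. Classes with under 20 cells in a library were not used. Doublet candidates were the top scores of Scrublet (scanpy 1.11.5) at a rate of 0.8% per 1000 cells and were kept in the main values.

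Hormone effects were fitted with edgeR 4.0.16 (quasi-likelihood test, TMM, filterByExpr) and the Wnt1 comparisons with limma 3.58.1 (limma-voom) over all genes, with Benjamini-Hochberg adjustment and a threshold of 0.05. On simulated counts for the hormone comparison over 15468 genes, 91 of 100 genes changed by 1 on the log2 scale and 100 of 100 changed by 2 were recovered, with 17 false calls. For tumour against hyperplasia over 15941 genes the numbers were 87, 100 and 10. The simulation gave every gene the same fixed spread beyond counting error, not one estimated from these data. Recovery in the real comparisons may therefore differ. Hyperplasia and tumour of one mouse pair by the labels, and their deviations from the group means correlated at 0.0954. Stage ratios carry exact conditional binomial intervals and levels exact Poisson intervals, at 95%.

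Alternatives were DESeq2 1.42.0, other size factors, no count filter, other cell limits, doublets removed, a replicate block, another cluster resolution and leaving out each library. The members and lists were chosen with earlier results of these data known. In comparisons over all fibroblasts the other guidance genes named are the largest changes that passed, at most 8 each, and Dcc, which passed nowhere, was named after its values were seen. Within classes Sema3c is named and the rest are counted. Genes most like a member are the top 3 by Pearson r among genes of at least 10 CPM on average, over class sums of at least 100 cells.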

Additional observations from a re-analysis of the deposited data

Results flagged for a closer look

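The response to MPA+E differed between the Pi16/Dpp4 class and the average over the remaining 4 classes for 5 members by the test of the difference itself (edgeR adjusted p under 0.05). The log2 difference in response was -1.39 for Sema3d, -1.18 for Robo1, -0.79 for Sema3b, -0.49 for Ntn1 and 0.30 for Slit3. Without any 1 of the 4 libraries Robo1, Sema3b and Sema3d still passed, Slit3 did not pass in any of these 4 fits, and Ntn1 did not pass without placebo 1 or without MPA+E 1. Values of each class and library stand with the hormone comparison.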

How the results depend on the processing

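Of 83 member values, the alternatives gave 624 values of the same direction and call, 58 that no longer passed, 24 that newly passed and 34 of opposite sign. No stage ratio past 2-fold changed direction. Among those near 1, Slit2 in pregnancy against the adult (1.01) was 0.945 to 0.993 under 5 alternatives, and Sema3b in involution against lactation (0.999) was 1.004 to 1.08 under 4. In all, 23 alternative ratios moved by more than counting error. For all fibroblasts after MPA+E 678 genes passed, 1358 with DESeq2 and 2451 with the replicate number as a block. The hormone libraries share only a replicate number (correlation of same-numbered deviations 0.396), so this block is a hint from the data, not the design. For tumours, paired by mouse, the block changed no call of a member. The block gave 3455 genes in the Pi16/Dpp4 class (1767 without it), 2242 in the preadipocyte class (535), 1316 in the ECM remodelling class (156), 877 in the lobular class (283) and 1256 in the adipogenesis-regulatory class (395), with 4, 3 and 3 members passing in the preadipocyte, ECM remodelling and adipogenesis-regulatory classes. Without a filter on low counts 1508, 820 and 726 genes passed in the preadipocyte, ECM remodelling and lobular classes, with 4 and 2 members in the first and second. In the adipogenesis-regulatory class 0 members passed without that filter or with doublets removed. For hyperplasia 2 members passed with edgeR. The cause was not tested.

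Leaving out 1 library gave 22 to 900 genes and 0 to 5 members for all fibroblasts after MPA+E, 1 to 183 and 0 to 2 for hyperplasia, and 242 to 7120 and 0 to 4 for tumours. By class it gave 572 to 2597 genes and 3 to 7 members (Pi16/Dpp4), 197 to 727 and 0 to 1 (preadipocyte), 98 to 478 and 0 to 1 (ECM remodelling), 239 to 414 and 0 (lobular), and 15 to 134 and 0 (adipogenesis-regulatory). For the difference between classes 3 to 4 members passed, with 687 to 1374 genes. An arm of 1 library was assumed to vary like the other. Some log2 fold changes changed sign without 1 library. In all fibroblasts after MPA+E the ranges were Slit2 -0.42 to 0.0591. In hyperplasia the ranges were Sema3a -0.0314 to 0.31. In tumours the ranges were Slit3 -0.0344 to 0.12, Robo2 -0.32 to 0.0592, Sema3d -1.22 to 0.42, Nrp1 -0.28 to 0.37. In the Pi16/Dpp4 class the ranges were Slit2 -0.67 to 0.50, Sema3a -0.15 to 0.35, Nrp1 -0.0812 to 0.42. In the ECM remodelling class the ranges were Sema3a -0.0075 to 0.0895, Sema3e -0.63 to 0.46, Nrp1 -0.0355 to 0.22. In the lobular class the ranges were Slit2 -0.56 to 0.0827, Sema3b -0.60 to 0.57, Nrp1 -0.0118 to 0.23. In the adipogenesis-regulatory class the ranges were Slit3 -0.0076 to 0.15, Robo1 -0.30 to 0.0227, Sema3a -0.077 to 1.75, Nrp1 -0.0329 to 0.25. In the difference between classes the ranges were Slit2 -0.0642 to 0.91, Robo2 -1.32 to 0.43, Sema3a -0.42 to 0.37, Sema3e -0.16 to 0.28, Nrp1 -0.15 to 0.18. Slit2 also changed sign to -0.0418 under the block in the Pi16/Dpp4 class and to 0.58 with doublets removed in the lobular class. Sema3d, Sema3e and Robo2 in classes under 1 CPM rest on few UMIs, which limits their fold changes.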

Other observations

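A cluster of the stage libraries that met no naming rule, cluster 5 with 4086 cells and Cd55 among its leading genes, held Robo1 and Sema3e. Robo1 there was 14.0 CPM in puberty, 12.2 CPM in the adult, 17.6 CPM in pregnancy, 98.8 CPM in lactation and 31.7 CPM in involution. The lactation value was above that of every named class, and the other 4 were below the ECM remodelling class. Sema3e, itself among the leading genes of the cluster although it was left out of the clustering, was 11.7, 29.2, 13.6, 21.5 and 16.2 CPM at the same stages, above the Pi16/Dpp4 class in puberty, the adult and pregnancy and below it in lactation and involution. Slit2 was 3.16 to 38.1 CPM and Robo2 0 to 1.78 CPM in this cluster.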
